A study of Homo sapiens with 30 samples.

Results

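SOX proteins are transcription factors that bind DNA through a high mobility group domain, and they control how stem and progenitor cells of many tissues keep or change their identity. Bone morphogenetic protein 4 (BMP4) is a secreted ligand of the transforming growth factor beta superfamily. It acts through receptor kinases and SMAD proteins, which enter the nucleus and bind target genes. In the early embryo BMP signalling and SOX genes act on the same decisions, such as whether cells become neural or epidermal, and in the breast SOX2, SOX4, SOX9, SOX10 and SOX11 are best known from stem-like, basal or aggressive tumour cells. The 8 genes described here were SOX2, SOX3, SOX4, SOX9, SOX10, SOX11, SOX12 and SOX13, out of 30484 different gene names or identifiers that the array gives its features. They were chosen by name, as the family of SOX2, and SOX2 had itself been selected on these data because its BMP4 response differed strongly between cell lines. The line means of the ratio and the levels of each line are therefore given as a description, without a test.

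The cells were 5 established lines of human breast cancer (ZR-75-30, SK-BR-3, MDA-MB-361, HCC1954 and HCC1419). They received recombinant human BMP4 or vehicle and were collected after 30 min or after 1, 3, 6, 12 or 24 h. Each of the 30 two-colour arrays set the BMP4-treated cells of 1 line and time point (Cy5) against vehicle-treated cells of the same line and time (Cy3), so each line had 6 arrays and each time point 5. Triplicate cultures were pooled before RNA extraction, no array had the dyes swapped, and every line is 1 established line, so p-values measure the spread between lines or between arrays of a line and not between cultures. A ratio is given as log2 of BMP4-treated over vehicle-treated cells, and a level as log2 of the normalized Cy3 signal of vehicle-treated cells. In a bulk sample, fewer cells of a kind and less RNA per cell cannot be told apart.

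Of 8 epithelial marker genes named by the array, all 8 were well above background on the 6 arrays of every line except SK-BR-3, where 7 were and CDH1 (E-cadherin) was above background on no array. Of 13 markers of other cell types, 3 to 7 were above background in the Cy3 channel on all 6 arrays of a line. The leukocyte gene PTPRC, the melanocyte gene MLANA and the fibroblast gene DCN were above background on no array, while 1 probe of the T-cell gene CD3E was above background on all arrays of every line, and the collagen gene COL1A1 on all arrays of 4 lines and 4 of 6 in SK-BR-3. ACTA2 was above background on all arrays of 4 lines, and KRT14 on all arrays of every line with 1 of its probes. The basal gene KRT5 passed on all 6 arrays of HCC1954, on 3 of 6 in SK-BR-3 and on none elsewhere. The endothelial gene PECAM1 passed only in HCC1954, on all 6 arrays, and CDH5 on 5 of 6 in HCC1954 and in SK-BR-3. TP73L (p63) passed only in HCC1954 with 1 probe, and on all arrays of HCC1954 and MDA-MB-361 with the other. The part of these markers in the SOX values was not tested. The Cy3 channel of an array had 58.9% to 70.6% of the 41000 array features well above background. HCC1419 and MDA-MB-361 were each scanned on 1 day and the other 3 lines on 2 days each. In SK-BR-3 and likewise in MDA-MB-361 the 30 min and 1 h arrays lay on 1 slide and the 4 later arrays on another, so that in these lines slide and an early-to-late difference cannot be told apart.

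The array measured the 8 genes with 15 probes, all with a value on all 30 arrays. SOX2, SOX4, SOX10, SOX11 and SOX12 had 2 probes each, SOX3 had 3, and SOX9 and SOX13 had 1. Positions are those of the files in build hg18, and upstream and downstream are meant along the direction of the gene. The upstream SOX2 probe lay at chr3:182913440-182913499 and the downstream one at chr3:182914571-182914630. The SOX4 probes lay at chr6:21704964-21705023 and chr6:21705980-21706039, the SOX11 probes at chr2:5751759-5751818 and chr2:5758879-5758938, and the SOX12 probes at chr20:256714-256773 and chr20:258276-258335, upstream first. On chromosome X, where SOX3 runs on the minus strand, its upstream probe lay at chrX:139413690-139413749 and its downstream probe at chrX:139412914-139412972. The third probe that the array names SOX3 is described in the files as Sox-9 mRNA and has no position, so its target is uncertain. The SOX10 probes, at chr22:36699025-36699084 and chr22:36699035-36699094, overlapped. SOX9 was measured at chr17:67633436-67633495 and SOX13 at chr1:202363174-202363233. Whether a probe lies in coding sequence or in a UTR was not determined here, since no annotation of build hg18 was used.

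The 250 bases before the start of SOX2, SOX4 and SOX12 are shown because much of the description below concerns these 3 genes, for which a RefSeq window was at hand. They come from RefSeq in build GRCh38.p14. Capitals mark GGCGCC, the GC-rich element that SMAD proteins of the BMP pathway are known to bind, searched on both strands, where it reads the same.
SOX2, chr3:181711675-181711924, plus strand: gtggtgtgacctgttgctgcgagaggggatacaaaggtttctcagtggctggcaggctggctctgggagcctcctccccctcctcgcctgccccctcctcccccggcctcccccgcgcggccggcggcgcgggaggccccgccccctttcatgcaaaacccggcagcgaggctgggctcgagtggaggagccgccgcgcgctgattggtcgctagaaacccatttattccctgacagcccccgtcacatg
SOX4, chr6:21593501-21593750, plus strand: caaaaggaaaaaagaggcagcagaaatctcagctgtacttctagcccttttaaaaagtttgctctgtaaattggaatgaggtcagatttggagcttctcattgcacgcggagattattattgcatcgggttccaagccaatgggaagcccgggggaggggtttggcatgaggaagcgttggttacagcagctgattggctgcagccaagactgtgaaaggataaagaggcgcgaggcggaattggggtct
SOX12, chr20:325302-325551, plus strand: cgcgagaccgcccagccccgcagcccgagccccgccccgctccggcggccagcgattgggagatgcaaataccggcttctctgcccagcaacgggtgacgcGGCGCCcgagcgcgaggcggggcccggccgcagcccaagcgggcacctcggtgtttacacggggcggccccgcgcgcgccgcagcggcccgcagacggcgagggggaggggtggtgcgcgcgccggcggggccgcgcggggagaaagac
The element occurred 1 time before SOX12 and 0 times before SOX2 and SOX4, and 16.4% of 35116 promoter windows of this length held it. The palindromic SMAD box GTCTAGAC was in none of these 3 windows and in 0.182% of all. Of the members, SOX3 and SOX13 also had a window in the RefSeq table, and neither held GGCGCC. A match describes letters only, and the arrays did not measure binding.

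Which of the 8 genes were detected differed between the 5 lines. SOX4 (both probes), SOX9, SOX13 and the upstream SOX3 probe were well above background in both channels on all 30 arrays. SOX2 was above background on all arrays of 4 lines, and SOX11 on all arrays of 3. The downstream SOX3 probe was above background on every array only in ZR-75-30. SOX10, a neural crest and myoepithelial regulator, was at background nearly everywhere, with Cy3 above background on 3 and 2 of 30 arrays for its probes. For 5 of the 15 probes, namely both SOX2 probes, the downstream SOX3 probe and both SOX11 probes, the 6 arrays of the highest line all lay above every array of the other 4 lines. Over all array features with complete values this share was 18.1%.

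**Figure D1:**
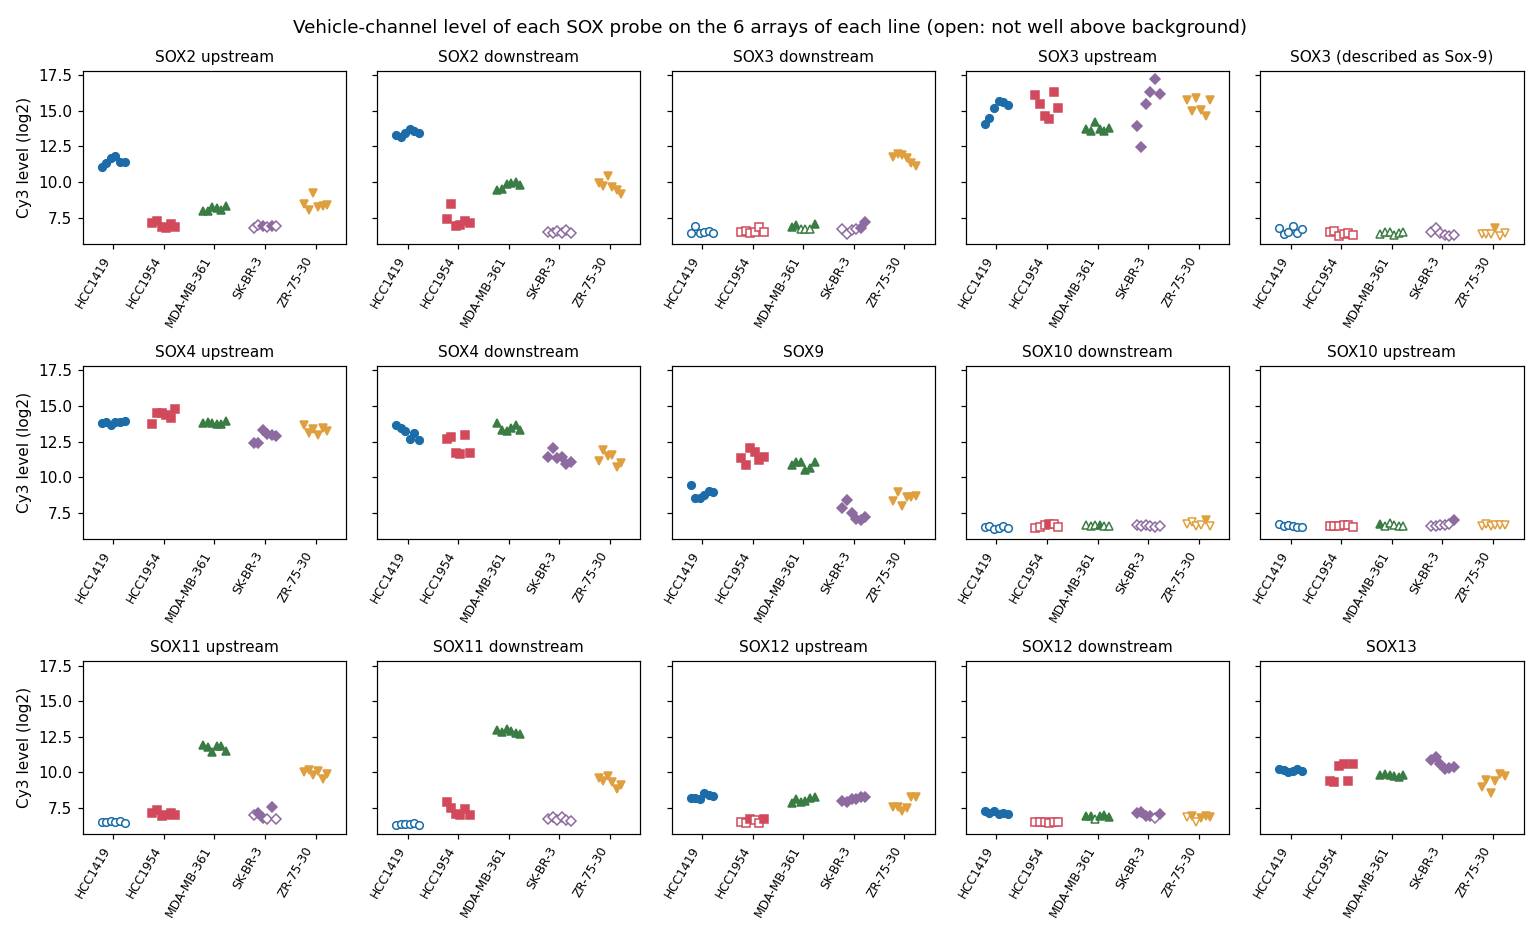
Log2 Cy3 level of vehicle-treated cells (y axis) for each of the 15 probes, with the 6 arrays of a line side by side in order of time and filled where the spot was well above background. SOX2 stood highest in HCC1419, the downstream SOX3 probe in ZR-75-30 and SOX11 in MDA-MB-361, while SOX10 stayed near background in all 5 lines. Levels of different probes are not comparable.

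SOX2, a core regulator of pluripotent and neural progenitor cells whose gene lies within that of the noncoding RNA SOX2OT, was most abundant in HCC1419. The downstream probe read 13.15 at the lowest, 13.43 at the median and 13.75 at the highest in that line. It read 9.44, 9.82 and 10.03 in MDA-MB-361 and 9.17, 9.68 and 10.44 in ZR-75-30, whose ranges overlapped. HCC1954 was lower, at 6.94, 7.19 and 8.47, and in SK-BR-3 no array was well above background. The level in HCC1419 was 12.8-fold that in MDA-MB-361, 13.2-fold that in ZR-75-30 and 67.8-fold that in HCC1954, and at least 109-fold that in SK-BR-3. This last bound sets the HCC1419 mean against, per array, the higher of the probe's own signal and the lowest signal of any feature well above background. The upstream probe gave the same highest line, with a mean of 11.44 ± 0.26 (SD, n = 6) in HCC1419 against 8.45 ± 0.41 in ZR-75-30 and 8.11 ± 0.16 in MDA-MB-361, and 2 of 6 SK-BR-3 arrays were above background there. Over the 30 arrays the levels of the probes correlated with r = 0.97, where all points share the 5 lines.

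The SOX2 ratio was below 0 on every HCC1419 array with both probes. With the downstream probe the HCC1419 values ran -0.64, -0.58, -1.03, -0.71, -0.94 and -0.67 from 30 min to 24 h, a mean of -0.76 ± 0.18 (SD, n = 6). The upstream probe gave -0.34, -0.74, -0.85, -0.53, -0.52 and -0.63, a mean of -0.60 ± 0.18. In the line where SOX2 was most abundant, the BMP4 channel thus read lower than the vehicle channel from the first time point on. The ratio reached 2-fold on 1 array, at 3 h with the downstream probe. With no dye swap, a standing difference between the channels cannot be told apart from a response to BMP4 here.

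In MDA-MB-361 the probes disagreed. The downstream probe read 0.10 and -0.01 at 30 min and 1 h and then -0.55, -0.49, -0.65 and -0.59 at 3, 6, 12 and 24 h. The early and late arrays did not overlap, and they lay on different slides. The upstream probe read 0.13, 0.00, -0.20, 0.05, 0.09 and -0.16, with a mean of -0.01 ± 0.14. In ZR-75-30 the downstream probe lay between -0.51 and 0.11, with its lowest value at 24 h, and the upstream probe was below 0 on 5 of 6 arrays, between -0.65 and 0.52. In HCC1954 both probes stayed between -0.18 and 0.16. In SK-BR-3 the downstream probe was at background in both channels, and its ratios there carry no SOX2 measurement.

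**Figure D2:**
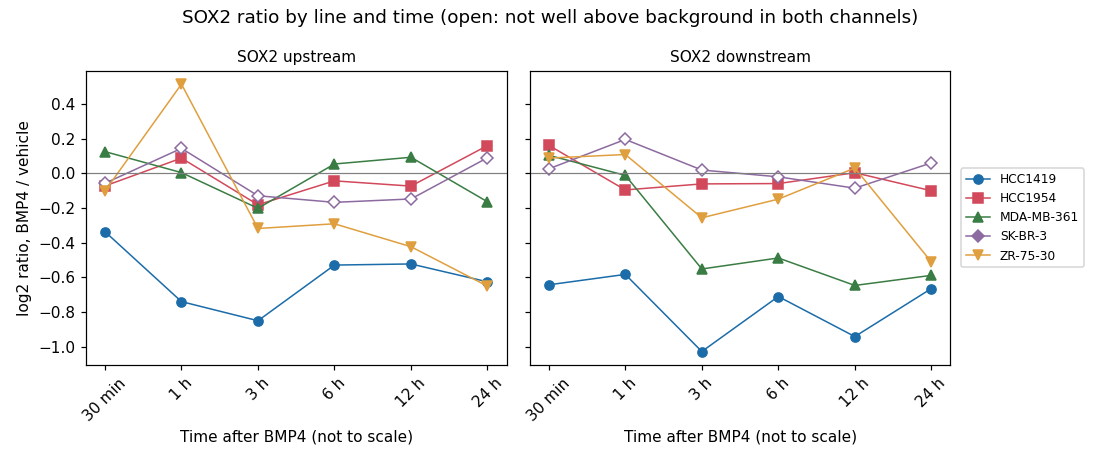
SOX2 log2 ratio of BMP4 over vehicle (y axis) at the 6 time points (x axis, evenly spaced, not to scale) for both probes, 1 line per cell line, open where the spot was not well above background in both channels. HCC1419 lay below 0 throughout, with means of -0.60 (upstream) and -0.76 (downstream), and MDA-MB-361 lay between -0.65 and -0.49 from 3 h on with the downstream probe, but between -0.20 and 0.09 with the upstream one.

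Whether the family shared a response across the 5 lines was tested with limma, with Benjamini-Hochberg adjustment over all array features. At each time point 0 of 15 probes had a mean ratio that differed from 0. In order of time from 30 min to 24 h, the shares of all features called were 0.0805%, 0.973%, 0.349%, 0.176%, 0.463% and 1.58%. At an unadjusted p under 0.05 the 15 probes gave 1, 0, 3, 1, 2 and 5 calls at these times, where the shares of all features were 7.09%, 14.3%, 10.3%, 6.96%, 12% and 14.5%. A change over the time course was called for 0 of 15 probes (0.0902% of all features; 1 probe and 4.2% of all features at unadjusted p under 0.05), and a late change, the mean of 3 to 24 h minus 30 min, for 0 (0.0927%; 2 probes and 4.99% unadjusted). The median late change of the 15 probes was -0.03, with 6 above and 9 below 0, against 0.01 over all features. A late change that differed between lines was called for 0 (0.0415%; 1 probe and 5.58% unadjusted). Any dye bias of a probe is part of a ratio tested against 0, but cancels in the late change if it is the same on every array. The ratio differed between lines for 6 of 15 probes and for 22.2% of all features, but this contrast chose SOX2 and nothing is read from it.

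The downstream SOX2 probe had the lowest p of the family for the late change, -0.29 ± 0.08 (SE, 5 lines), with an adjusted p of 0.461 by limma. Against 0, its mean ratios at 3, 12 and 24 h were -0.38, -0.33 and -0.36, each ± 0.15 (SE), with adjusted p of 0.382, 0.391 and 0.263 by limma. With the cell line as a replicate block, which removes the differences between lines from the error, these 3 time points passed, with adjusted p of 0.00840, 0.0166 and 0.00475 by limma and an SE of 0.07. SOX2 had been chosen for large line differences in these same ratios, which are the spread that the block removes, so these values are no independent support for a common change. With that block, the shares of all features called from 30 min to 24 h were 0.222%, 2.53%, 1.08%, 0.517%, 1.9% and 4.44%. At 3 h the 5 lines read -1.03 in HCC1419, -0.55 in MDA-MB-361, -0.26 in ZR-75-30, -0.06 in HCC1954 and 0.02 in SK-BR-3, so the mean came from 3 of the lines. The upstream probe, which was called at no time point under the block, had a late change of -0.16 ± 0.10 (adjusted p = 0.965 by limma).

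**Figure D3:**
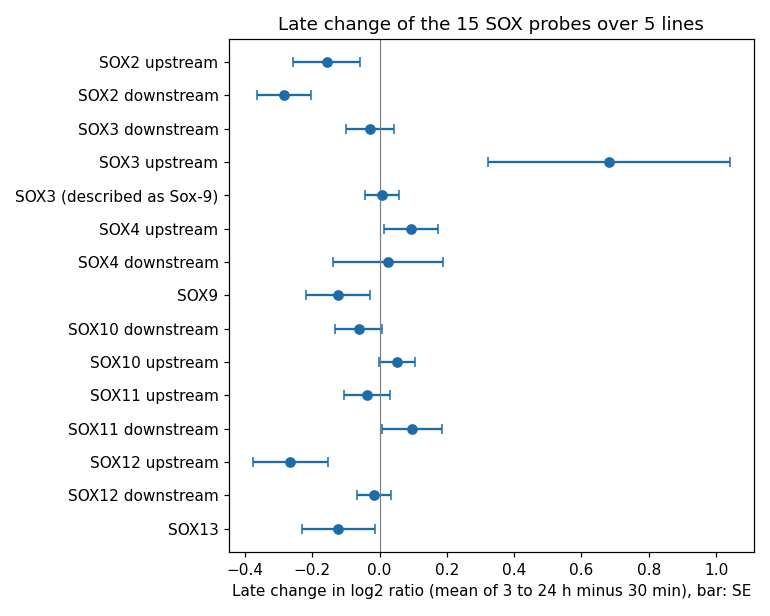
Late change of the 15 probes, the mean log2 ratio of 3 to 24 h minus that at 30 min over 5 lines (x axis), with bars of 1 SE. The downstream SOX2 and upstream SOX12 probes lay lowest, at -0.29 and -0.27, the upstream SOX3 probe had the widest bar, and none was called.

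SOX3, the other progenitor factor of the SOX2 subgroup measured here, was bright in 1 line with its downstream probe and in all lines with its upstream probe. The downstream probe read 11.10 at the lowest, 11.72 at the median and 11.97 at the highest in ZR-75-30. In HCC1419 and HCC1954 no Cy3 signal of this probe passed background, and the ZR-75-30 level was at least 31.8-fold and at least 33.5-fold higher. It was above background on 3 of 6 arrays of MDA-MB-361 and 2 of 6 of SK-BR-3. In ZR-75-30 its ratio ran 0.00, -0.22, -0.16, 0.18, 0.42 and 0.38 over time, a mean of 0.10 ± 0.27 (SD, n = 6). At 12 and 24 h the vehicle channel read 11.34 and 11.10, against 11.70 to 11.97 before. The BMP4 channel read 11.75 and 11.48, against 11.74 to 11.89 before. The upstream probe was bright in every line, between 12.49 and 17.27. Its level split by scan day in SK-BR-3, at 12.49 to 13.96 at 30 min and 1 h and 15.49 to 17.27 later. In HCC1954 it was 15.51 to 16.34 on the 30 min, 1 h and 12 h arrays and 14.44 to 15.24 on the others. Scan day cannot be told apart from slide there, nor from early or late time in SK-BR-3. The ratios of the upstream probe were the widest of the family. In SK-BR-3 they ran -2.12, 0.93, -0.05, -0.68, -1.99 and 0.43 over time. It was above 0 on 6 of 6 arrays in MDA-MB-361 (mean 0.85 ± 0.60) and below 0 on 6 of 6 in HCC1419 (mean -0.93 ± 0.55).

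The upstream SOX3 probe followed a large group of array features. Its ratio correlated with that of NEUROG3, a neurogenic transcription factor gene, with r = 0.97 over 30 arrays, and 262 features that were above background on most arrays, this probe among them, reached r of 0.9 or more with NEUROG3. The 9 other probes that were above background in both channels on most arrays had r between -0.32 (SOX13) and 0.49 (upstream SOX4). For SOX2, r was 0.15 with the downstream and 0.44 with the upstream probe. The probes most like the upstream SOX3 probe were those of CACNA1I, IER5 and ZNF467, all at r = 0.99. Of the 10 members' ratios at or beyond 2-fold on single arrays, out of 450 (against 0.5% of all values on the array), 7 belonged to this SOX3 probe.

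**Figure D4:**
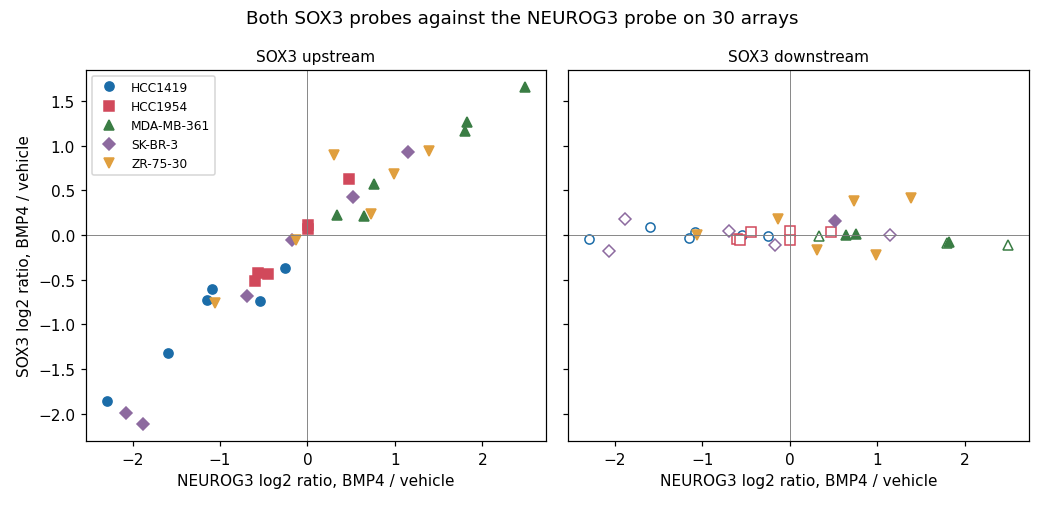
Log2 ratio of the upstream and downstream SOX3 probes (y axes) against the log2 ratio of NEUROG3 (x axis), 1 point per array, 30 arrays, open where the SOX3 spot was not well above background in both channels. The upstream probe rises with NEUROG3 in all 5 lines together (r = 0.97). The downstream probe was above background in both channels on 10 of 30 arrays, so its points bear little on such a relation.

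SOX4, SOX11 and SOX12 form the SoxC subgroup, whose members act in neural and mesenchymal progenitors, and SOX4 is a known target of transforming growth factor beta signalling. SOX4 was bright in all 5 lines. With the upstream probe its level was highest in HCC1954 (mean 14.33 ± 0.37, SD, n = 6) and lowest in SK-BR-3 (12.83 ± 0.37), a 2.82-fold range. The upstream ratio stayed between -0.41 and 0.32 on all arrays, below 0 on 6 of 6 arrays in SK-BR-3 (mean -0.17 ± 0.08) and above 0 on 6 of 6 in MDA-MB-361 (mean 0.11 ± 0.06). When each array was instead centred by 1 factor, these means became -0.038 and 0.36. The downstream probe showed larger ratios. In ZR-75-30 it read 0.24, 0.40, 0.70, 0.46, 0.86 and 1.29 over time, with all 6 arrays above 0 and the highest at 24 h. In HCC1419 it read 0.23, 0.13, 0.66, 0.50, 0.30 and 0.26.

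The downstream SOX4 ratio was high on 1 SK-BR-3 array, 1.04 at 30 min, while the other 5 arrays of that line lay between -0.38 and 0.34. In MDA-MB-361 it lay between -0.57 and 0.32, and its mean of -0.11 became 0.13 with 1 factor per array. Across lines the late change of this probe was 0.02 ± 0.16 (SE), with an adjusted p of 0.999 by limma, and the difference of the late change between lines had an adjusted p of 0.761 by limma. The SOX4 probes correlated with r = 0.11 for the ratio over 30 arrays. In HCC1954 the downstream level followed the scan day, between 12.72 and 13.00 on the 30 min, 1 h and 12 h arrays and between 11.62 and 11.69 on the 3, 6 and 24 h arrays, and the latter 3 arrays also lay on a slide of their own, so that scan day and slide cannot be told apart.

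SOX11 was most abundant in MDA-MB-361, where the downstream probe read 12.67 at the lowest, 12.84 at the median and 13.06 at the highest. The level there was 11.6-fold that in ZR-75-30 and 46.4-fold that in HCC1954, and at least 66.9-fold that in SK-BR-3 and at least 79.8-fold that in HCC1419, where no array was well above background. With the upstream probe the MDA-MB-361 level was 3.48-fold that in ZR-75-30 and 24.9-fold that in HCC1954. With loess, the mean ratios in the 2 lines with most SOX11 had opposite signs. In ZR-75-30 the downstream probe read 0.06, 0.38, 0.09, 0.45, 0.95 and 0.66 over time and the upstream probe had a mean of 0.24 ± 0.22, with 6 of 6 arrays above 0 for both. The BMP4 channel of the downstream probe read 9.64 to 9.87 in this line. Its vehicle channel read 8.81 at 12 h, where the ratio was highest, and 9.12 to 9.78 at the other times. The upstream ratio split by scan day there. It was 0.24 to 0.66 on the 1, 6 and 24 h arrays and 0.03 to 0.16 on the 30 min, 3 h and 12 h arrays. In MDA-MB-361 the downstream probe read -0.12, 0.04, -0.10, -0.19, -0.29 and -0.38, and its upstream probe had a mean of -0.08 ± 0.14. With 1 factor per array the MDA-MB-361 means turned to 0.034 downstream and 0.093 upstream, so the sign in that line depended on the normalization. The late change over all lines was 0.10 ± 0.09 downstream and -0.04 ± 0.07 upstream (SE; adjusted p = 0.971 and 0.987 by limma), and whether it differed between lines did not pass for either probe.

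SOX12 was low. Its upstream probe was above background on all arrays of 4 lines, with means from 7.74 ± 0.44 (SD, n = 6) in ZR-75-30 to 8.30 ± 0.14 in HCC1419 and overlapping ranges. In HCC1954 it passed background on 2 of 6 arrays in Cy3 and on no array in Cy5. Its ratio was below 0 on 6 of 6 arrays in HCC1419 (mean -0.27 ± 0.12) and on 5 of 6 in ZR-75-30, SK-BR-3 and MDA-MB-361. The lowest values were -0.84 at 12 h and -0.74 at 24 h, both in ZR-75-30. On these 2 arrays the vehicle channel read 8.28 and 8.29, against 7.25 to 7.60 at the earlier times of that line. The BMP4 channel read 7.44 and 7.55, against 7.13 to 7.55 earlier. The 24 h ratios of this probe were -0.74 in ZR-75-30, -0.34 in MDA-MB-361, -0.26 in HCC1954, -0.21 in SK-BR-3 and -0.20 in HCC1419, all below 0. The HCC1954 value was at background in Cy5, so the shared sign rests on the 4 lines measured in both channels. The mean at 24 h was -0.35 ± 0.11 (SE), with an adjusted p of 0.0987 by limma, and of 0.0425 with the cell line as a replicate block. The mean was -0.80 with the software's ratio and -0.82 with the series matrix, over 2 times the size, with adjusted p of 0.0140 and 0.0153 by limma. With these 2 ratios 1103 and 847 array features were called at 24 h, against 647 with the main ratio. The downstream SOX12 probe was dimmer, above background in both channels on 15 of 30 arrays, and its line means lay between -0.09 and 0.00.

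**Figure D5:**
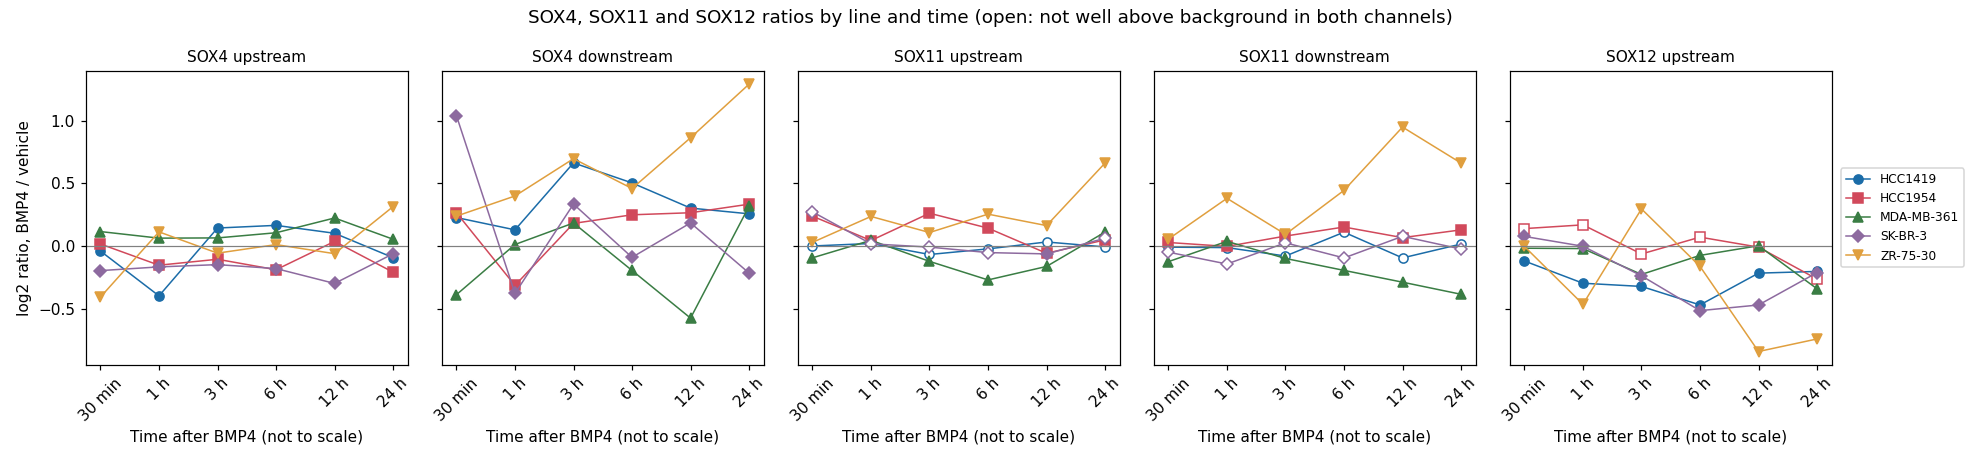
Log2 ratio of BMP4 over vehicle (y axis) at the 6 time points (x axis, evenly spaced, not to scale) for the SOX4, SOX11 and upstream SOX12 probes, 1 line per cell line, open where the spot was not well above background in both channels. ZR-75-30 reached 1.29 with the downstream SOX4 probe, 0.95 with the downstream SOX11 probe and -0.84 with the SOX12 probe. For the SOX11 and SOX12 values, both at 12 h, the BMP4 channel lay within its range at the other times in that line.

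SOX9, a regulator of cartilage and of mammary stem and luminal progenitor cells, was measured in all lines. Its level was highest in HCC1954, at 10.84, 11.41 and 12.05 (lowest, median and highest), and overlapped MDA-MB-361, at 10.51, 10.93 and 11.06. HCC1419 and ZR-75-30 followed, with overlapping ranges around 8.89 ± 0.34 and 8.53 ± 0.34 (SD, n = 6), and SK-BR-3 was lowest at 7.49 ± 0.54, a 15.5-fold range. The ratio stayed between -0.36 and 0.37 on all 30 arrays. Line means lay between 0.01 in ZR-75-30 and 0.15 in HCC1954, where 6 of 6 arrays were above 0. In HCC1954 level and ratio split by scan day, which cannot be told apart from slide there. On the 30 min, 1 h and 12 h arrays the level was 10.84 to 11.38 and the ratio 0.17 to 0.35. On the 3, 6 and 24 h arrays the level was 11.45 to 12.05 and the ratio 0.01 to 0.11. The SK-BR-3 level also split, at 7.81 to 8.41 at 30 min and 1 h and 6.98 to 7.47 later. The late change of SOX9 was -0.12 ± 0.09 (SE; adjusted p = 0.971 by limma).

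SOX13, a SoxD factor known from lymphoid and neural development, was also measured in all lines, with mean levels from 9.34 ± 0.49 in ZR-75-30 to 10.58 ± 0.35 (SD, n = 6) in SK-BR-3. In HCC1954 both its level and its ratio split by scan day, which cannot be told apart from slide there. On the 30 min, 1 h and 12 h arrays the level was 9.31 to 9.42 and the ratio -0.08 to 0.18, and on the 3, 6 and 24 h arrays the level was 10.47 to 10.60 and the ratio -0.60 to -0.27. The 1-day lines HCC1419 and MDA-MB-361 had ratios between -0.14 and 0.04. In ZR-75-30, also scanned on 2 days, the ratio ran from -0.66 to 0.24 on the arrays of 1 day and from -0.41 to -0.12 on the other. SK-BR-3 split by scan day too, with the ratio moving the other way from HCC1954. Its 30 min and 1 h arrays had levels of 10.86 to 11.10 and ratios of -0.188 to 0.057. Its 4 later arrays had levels of 10.25 to 10.62 and ratios of 0.061 to 0.284. Day, slide and early or late time cannot be told apart in that line. The late change of SOX13 was -0.12 ± 0.11 (SE; adjusted p = 0.971 by limma). SOX10 and the probe described as Sox-9 had line means of the ratio between -0.10 and 0.19, at or near background, and carry no measurement of a response.

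Of 19 probes for 11 other SOX genes, 0 were called in any of the tests, with 5 at an unadjusted p under 0.05 at 1 h (14.3% of all features) and 0 to 2 at the other times, and 7 were above background on most arrays. Among the SOX2 partner genes (19 probes of 10 genes), 1 was called, POU5F1, which encodes the pluripotency factor OCT4, at 0.30 ± 0.07 (SE) at 24 h with an adjusted p of 0.0265 by limma. POU5F1 has near-identical pseudogene copies, which a probe may also detect. Among the known targets of SOX9 and SOX10 (35 probes of 20 genes), 1 was called, the collagen gene COL9A3, at 0.60 ± 0.12 at 12 h and 0.46 ± 0.12 at 24 h, with adjusted p of 0.0129 and 0.0397 by limma. Over all features 0.463% were called at 12 h and 1.58% at 24 h, and each list went through all the tests. Nothing about OCT4 or the SOX9 and SOX10 targets as a group is read from these single calls. The median ratio of the SOX2 partners at 24 h was 0.01 and that of the SOX9 and SOX10 targets was 0.02, against 0.00 over all features.

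The ratio of the downstream SOX2 probe was most like that of SCGB1D1 (r = 0.69 over 30 arrays), of the upstream SOX2 probe (r = 0.68) and of UGT2B10 (r = 0.68). Its vehicle level was most like that of OPLAH (r = 0.99), LEF1 (r = 0.98) and KIAA0329 (r = 0.97). The highest r with another gene's ratio was 0.74 for SOX4 (BIN1, upstream probe), 0.75 for SOX9 (MAP3K9), 0.92 for SOX11 (RP11-93B10.1, downstream probe), 0.86 for SOX12 (TNKS1BP1 and RNF208) and 0.88 for SOX13 (C8orf30A). These are the highest of 19082 features each, and the arrays share lines, slides and scan days.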

How the data were processed

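Each array carried Cy5-labelled RNA of BMP4-treated cells and Cy3-labelled RNA of vehicle-treated cells. Per the file headers, Feature Extraction 9.5.1.1 produced the spot signals on build hg18. The deposited mean and background signals are unnormalized intensity values, the deposited processed signals are intensity values that the software had background-subtracted and dye-normalized, and the deposited log ratio is a log10 value of Cy5 over Cy3 made by the software. The series matrix of the authors gives log2 ratios centred on a median of 0 per array, and the lowest r with the ratio of the processed signals was 0.9999. The software's p-value columns were not used.

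Spots were background corrected by normexp (offset 50), normalized by loess within arrays with limma 3.58.1 in R 4.3.3 with 1639 control spots left out, and averaged per probe. Levels came from Aquantile normalization between arrays. Well above background is the software's own flag. Tests were limma's lmFit and eBayes, and p-values were adjusted over all features by Benjamini-Hochberg and called under 0.05. Ratios against 0 had no block. The late change and the change over time had the cell line as a block, which pairs the arrays of the 6 time points, as the labels give the same line. After the mean of each time point was removed, the mean r across features was 0.25 between arrays of the same line and -0.09 between lines. The tests were tested on simulated data first. Precision is set by how few arrays there are.

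The members, lists and tests were chosen with earlier results of these data known. All probes of the 8 genes were described. From the lists, called probes were named, and the closest features by r were named for the brightest probe of each member above background on over 15 arrays. Alternatives covered the software's ratios, the series matrix, 1 factor per array, no background subtraction, dim features left out, array weights, slide or scan day as a random block, the block on or off, each line left out, and other level scales. A fixed block of cell line by scan day was added after seeing the data. The SOX probe sequences were not used here.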

Additional observations from a re-analysis of the deposited data

Results flagged for a closer look

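A sample that stood apart from the other arrays of its time point or line was sought for the SOX probes that were well above background on most arrays, in 103 groups of 5 or 6 ratios, and 8 were found. Chance gives about 1 in 20 groups. For SOX2, 2 of the 8 set HCC1419 against the other lines, the contrast that chose SOX2, and they are given as values only. SOX2 in HCC1419 stood below the other lines at 3 h with the upstream probe (-0.85) and at 30 min with the downstream probe (-0.64). SOX11 in ZR-75-30 stood above the other lines with the upstream probe at 1 h (0.24) and at 24 h (0.66), and the 24 h value also stood above the other 5 arrays of that line. At both times HCC1419 and SK-BR-3 were not above background in both channels, so their ratios carry little measurement of SOX11. These 1 h and 24 h arrays of ZR-75-30 also shared a scan day. SOX12 in ZR-75-30 stood below the other lines at 24 h (-0.74), of which HCC1954 was at background in Cy5. Within lines, the upstream SOX4 probe stood high in MDA-MB-361 at 12 h (0.22) and the downstream SOX4 probe stood low in HCC1954 at 1 h (-0.31).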

How the results depend on the processing

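No SOX probe was called for the late change, the change over the time course or the difference of the late change between lines under any alternative run. Against 0, summed over time points, 1 result of a probe and time was called with the software's ratio, 1 with the series matrix and 1 without background subtraction, each time upstream SOX12 at 24 h (adjusted p = 0.0140, 0.0153 and 0.0324 by limma), and 4 results of 2 probes with the cell line as a replicate block (downstream SOX2 at 3, 12 and 24 h and upstream SOX12 at 24 h). Over all array features, the software's ratio, the series matrix and no background subtraction called 1103, 847 and 1202 at 24 h, against 647 in the main fit. The replicate block called 444 features at 3 h, 779 at 12 h and 1819 at 24 h, against 143, 190 and 647. Without the replicate block the late change and change over time had 0 SOX calls as well. Leaving out a line gave 0 SOX calls. The late change of downstream SOX2 kept its sign in 15 of 15 alternatives (-0.50 to -0.11, adjusted p 0.0763 to 0.9998 by limma). It changed sign with 1 factor per array for upstream SOX2 (0.013), downstream SOX11 (-0.077) and SOX13 (0.026), for downstream SOX4 without HCC1419 (-0.021), MDA-MB-361 (-0.050) or ZR-75-30 (-0.12; range over lines left out -0.12 to 0.28), and for upstream SOX11 without SK-BR-3 (0.024). The causes were not tested. Of the mean ratios per line, 16 moved by more than the SD between arrays and 156 did not. Means that turned positive with 1 factor per array included SOX11 (both probes), downstream SOX4 and SOX13 (0.095) in MDA-MB-361 and upstream SOX4 in HCC1954 (0.14). Upstream SOX12 in HCC1419 went from -0.27 to -0.45 with the software's ratio and -0.49 with the series matrix. Members had 24 values past 2-fold with the software's ratio, 21 with the series matrix and 22 with 1 factor per array, against 10. The share over all array values, 0.5%, was taken for the main ratios only, so the rise is not read as particular to SOX. The SOX2 level of HCC1419 over the next line was 2.99 (log2, upstream) and became 3.49 with processed signals and 2.60 in the BMP4 channel, and downstream 3.68 became 3.28 in the BMP4 channel. The fixed block of cell line by scan day, chosen after seeing the data, gave 0 SOX calls.

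Dim probes limit what can be said of SOX10, downstream SOX3 outside ZR-75-30 and SOX2 in SK-BR-3. One pooled RNA per array leaves no estimate of the spread between cultures, and probes of the same gene disagreed for SOX2 in MDA-MB-361, SOX3, SOX4 and SOX12. The ratios of the SOX11 probes correlated with r = 0.62 but differed on single arrays. They read 0.16 upstream and 0.95 downstream in ZR-75-30 at 12 h, and 0.11 and -0.38 in MDA-MB-361 at 24 h.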

Other observations

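The ratios of 1 probe each of SOX1, SOX17 and SOX18 and of both SOX8 probes correlated with NEUROG3 at r of 0.97, 0.96, 0.92, 0.94 and 0.85 over 30 arrays, and all 5 were above background in both channels on every array. The second probes of SOX1 and SOX17 were above background in both channels on 0 arrays, so their ratios carry no measurement. One SOX21 probe was above background on all arrays with r = 0.58, and its second probe was above background on 0 arrays.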
